A study of Mus musculus with 6 samples.

Results

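Capillary endothelial cells line the smallest vessels of the pancreas. They were taken from 6 droplet-based single-cell libraries of sorted mouse pancreatic cells by the UMIs of a few genes, a UMI (unique molecular identifier) being 1 counted RNA molecule. A barcode was kept if it had at least 200 detected genes and no more than 20% of its UMIs from mitochondrially encoded genes. It was called a capillary cell if it had UMIs of at least 3 of the 7 endothelial genes Plvap, Kdr, Flt1, Emcn, Egfl7, Cdh5 and Pecam1, none of the leukocyte gene Ptprc or the B cell gene Cd79a, and fewer than 3 UMIs summed over the 5 arterial genes Gja4, Gja5, Sema3g, Fbln5 and Hey1. The members were thus chosen by the measured UMIs of these 14 genes, the number of genes and the mitochondrial share. This gave 1416 capillary cells among 4929 kept barcodes, of 8582 in the deposited matrices. A further 293 barcodes met the same conditions but reached 3 UMIs of the arterial genes, and are called arterial endothelial cells here.

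All mice were of the strain R26[CA]30EYFP on the background C57Bl/6J, in which a repeat tract keeps the reporter EYFP out of frame until a chance slippage in a dividing cell restores it. Each run was sorted into an EYFP negative and an EYFP positive fraction, giving 3 libraries of each. Runs 1 and 2 were untreated (homeostasis, 4 libraries). Run 3 came 9 days after pancreatitis caused by intraperitoneal cerulein, a secretagogue of acinar cells, at 50 ug/kg in PBS hourly, 7 times a day on 2 consecutive days (2 libraries). Pancreatitis and run 3 therefore cannot be told apart. The labels give no age, do not say whether runs or fractions came from separate animals, and the p-values measure only the spread between these libraries. The matrices hold no feature for EYFP, so the sort itself could not be checked.

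The capillary bed of the pancreas is fenestrated: its endothelial cells carry pores bridged by diaphragms, which Plvap builds, and this structure depends on VEGF signalling through the receptor Kdr, with Flt1 as a second, largely decoy, receptor. Emcn is a sialomucin of capillary and venous endothelium, Igfbp7 a secreted matrix protein of vessels, and Gpihbp1 the capillary protein that carries lipoprotein lipase to the vessel lumen. Such capillaries supply acini and islets, take up fatty acids, and present chemokines and adhesion molecules to leukocytes.

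The libraries were uneven. The EYFP negative fractions of runs 1, 2 and 3 held 115, 706 and 129 capillary cells and the EYFP positive fractions 410, 31 and 25, with 101062 to 2327955 UMIs summed per library and medians of 2060 to 5380 UMIs per cell. EYFP positive run 2 shared 71 of its 220 barcodes with EYFP negative run 2, and 18 capillary cells in all carried a barcode found in more than 1 library. Leaving the shared barcodes out took the number of genes called between the fractions from 4 to 8, and between the states from 7 to 16. The sexes were not balanced either: in run 1, 87 EYFP negative and 335 EYFP positive capillary cells had Xist UMIs and no Y-linked ones, and none the reverse. In run 2 the EYFP negative fraction held 192 cells with Xist alone and 157 with Y-linked UMIs alone, and the positive fraction 6 of each. In run 3 none had Xist alone, and 53 EYFP negative and 9 EYFP positive cells had Y-linked UMIs alone. Haemoglobin genes took 0.0135% to 11.2% of the capillary cells' UMIs, the highest in EYFP negative run 3, and acinar genes 0.254% to 4.17%, again the highest there.

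The labelled identity was checked against the 6 markers. Levels are given as CPM, the summed UMIs of each library per 1000000 UMIs, after trimmed-mean (TMM) normalization, set out in the order EYFP negative runs 1, 2 and 3, then EYFP positive runs 1, 2 and 3. Plvap stood at 5725, 5152, 5101, 5291, 5660 and 4928 CPM, Kdr at 3852, 2277, 2986, 3208, 1839 and 2243 CPM, and Flt1 at 4519, 2960, 3430, 3511, 2163 and 3009 CPM. Emcn stood at 2290, 2677, 2571, 2016, 2031 and 2381 CPM. These 4 genes belong to the rule, so their levels only describe the cells, and all 6 libraries held each of them. Igfbp7 and Gpihbp1 were not used by the rule. Igfbp7 stood at 5685, 10609, 10676, 6455, 8712 and 10188 CPM, and Gpihbp1 at 1403, 1980, 2065, 1432, 2274 and 2040 CPM. Both were lowest in the 2 libraries of run 1.

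**Figure D1:**
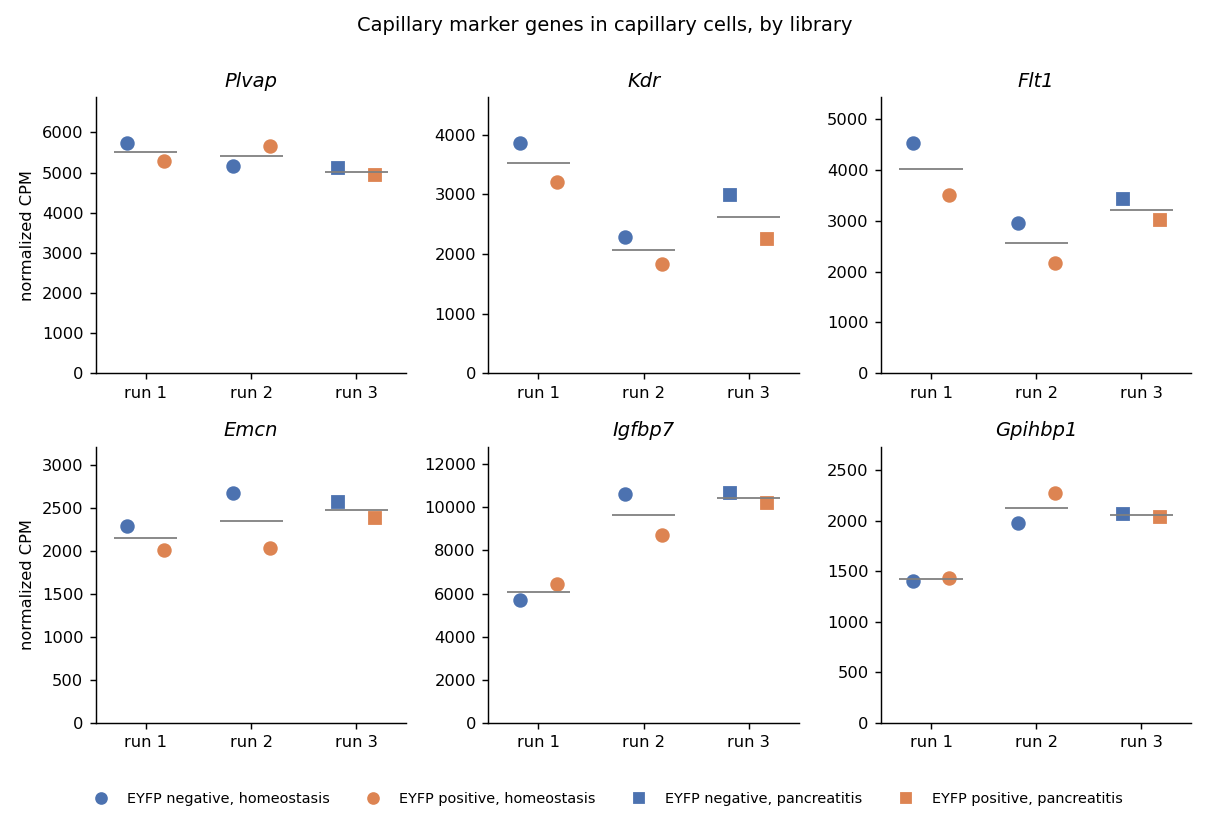
Normalized CPM of the 6 capillary markers in the capillary cells of each library, 1 panel per gene on a linear axis from 0. Each point is 1 library (blue EYFP negative, orange EYFP positive, circles homeostasis, squares pancreatitis) and each bar the mean of a run's 2 libraries. Plvap stays between 4928 and 5725 CPM, while Igfbp7 and Gpihbp1 are lowest in run 1.

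Detection in single cells was compared at 1 depth by drawing 1000 UMIs from each cell, which left out 18, 137, 41, 15, 5 and 5 shallower cells. Gpihbp1 was then seen in 61.9%, 70.3%, 81.8%, 66.3%, 92.3% and 90.0% of capillary cells. In barcodes with UMIs of the B cell gene Cd79a, the share was 1.71%, 8.89%, 0.22%, 3.03%, 5.88% and 0.0%. Endothelial barcodes were not taken out of that group. In EYFP negative run 2, 52 barcodes met the other conditions for a capillary cell but held Ptprc or Cd79a UMIs. Plvap was seen in 90.0% to 96.2% of capillary cells, against 0.0% to 10.5% of the Cd79a barcodes. Vwf, Selp, Ackr1 and Lrg1, which mark larger vessels and venules, and the lymphatic genes Lyve1, Pdpn and Prox1 were each seen in at most 1.03% of capillary cells. Flt4, also on the lymphatic list, went the other way. Without TMM normalization it averaged 88.4 CPM in capillary cells and 1.30 CPM in kept barcodes neither capillary nor arterial. Nr2f2, a transcription factor of venous fate, was seen in 6.19%, 1.93%, 1.14%, 4.81%, 0% and 0%, against 0% to 1.27% of the Cd79a barcodes. The venous list of 8 genes also holds Ephb4, Vcam1 and Sele, and summed to 142 to 384 CPM per library without TMM normalization. In EYFP positive runs 2 and 3 the sum was 188 and 142 CPM. Nr2f2, Vwf, Selp, Ackr1 and Lrg1 had no UMI there even without thinning, so it came from the other members.

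The edge of the rule was described without a test. Of the capillary cells, 993 had UMIs of all 7 endothelial genes and 64 of just 3. Gpihbp1 was present in 92.1% of the former, at a median of 4052 UMIs, and in 46.9% of the latter, at a median of 695 UMIs. The 96 barcodes just outside, with 2 endothelial genes, had Gpihbp1 in 17.7% at a median of 2005 UMIs, so they were deeper and held it less often. On the arterial side, 1064 cells had no arterial UMI, 242 had 1, 110 had 2, and 68 barcodes just outside had 3. Ptprc or Cd79a kept out 77 barcodes that met the other conditions.

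Capillary and arterial cells of the same libraries were set side by side as a description, since the rule separates them by gene levels; here levels are plain CPM of summed UMIs, averaged over the 6 libraries. Cyp1a1, a target of the aryl hydrocarbon receptor, averaged 63.6 CPM in capillary and 2.61 CPM in arterial cells, from 241 and 3 UMIs. Odc1, the first enzyme of polyamine synthesis, averaged 112 against 6.95 CPM, and Aplnr, the apelin receptor, 209 against 20.8 CPM. Lfng, which modifies Notch receptors, averaged 104 against 20.02 CPM and Kcnk5, a potassium channel, 85.0 against 11.6 CPM. All 5 were higher in capillary cells in every library. So were Klk1, Cel, Clps, Reg1, Rnase1, Cela1 and Ctrb1, products of the exocrine pancreas, which are among the 15 largest ratios; acinar genes took 0.254% to 4.17% of the UMIs in capillary and 0.138% to 0.537% in arterial cells, and their part was not tested.

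Genes lower in capillary cells in every library included regulators of arterial identity. Mecom, a transcription factor, averaged 62.4 CPM in capillary and 375 CPM in arterial cells, and Sox17, a transcription factor of arterial fate, 90.9 against 373 CPM. Vegfc, a ligand of lymphatic and venous growth, averaged 20.3 against 119 CPM, the angiotensin-converting enzyme Ace 37.8 against 204 CPM, and Glul, glutamine synthetase, 160 against 715 CPM. Of 3597 genes averaging at least 50 CPM in capillary cells, 201 were higher there in every library. Of 3658 genes averaging at least 50 CPM in arterial cells, 211 were lower in capillary cells in every library. EYFP positive runs 2 and 3 held only 4 and 5 arterial cells, so the arterial levels of those libraries rest on few cells.

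**Figure D2:**
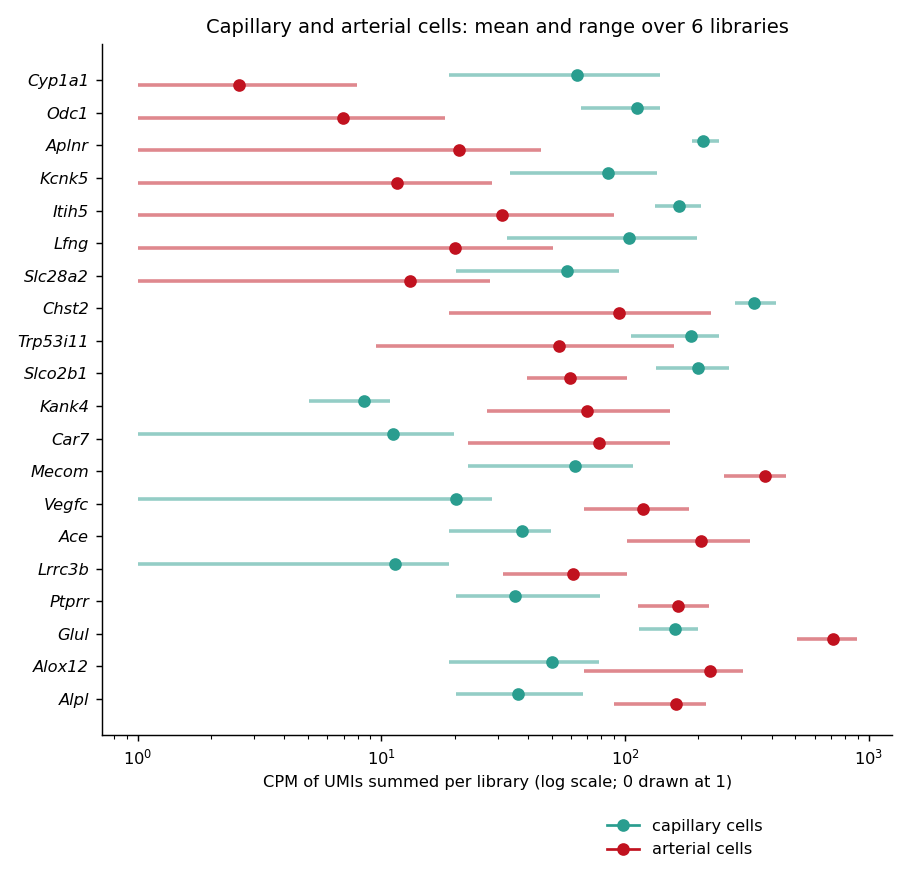
Plain CPM of summed UMIs in capillary (green) and arterial (red) endothelial cells for the 10 genes per direction with the largest ratio of means, leaving out rule and acinar genes, on a log axis where 0 is drawn at 1. Points are means and lines ranges over 6 libraries, of which EYFP positive runs 2 and 3 held 4 and 5 arterial cells. For Mecom the arterial range (254 to 457 CPM) lies above the capillary one (22.7 to 108 CPM).

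The other kept barcodes, neither capillary nor arterial, held little of several genes of fatty acid handling that both kinds of endothelial cell had. Fabp4, a cytosolic fatty acid carrier, averaged 10568 CPM in capillary cells and 126 CPM in the other barcodes, and Gpihbp1 1807 against 23.2 CPM. In arterial cells Fabp4 stood at 6028 to 13503 and Gpihbp1 at 1006 to 1675 plain CPM. Cd36, the fatty acid translocase, was lower in capillary than in arterial cells in every library, averaging 615 against 1303 CPM. Tcf15, which with Meox2 drives fatty acid uptake in capillaries, averaged 466 CPM in capillary cells and 6.09 CPM in the other kept barcodes. Car4, a carbonic anhydrase on the luminal surface, averaged 832 CPM in capillary cells and 8.35 CPM in those other barcodes. Within the capillary cells Car4 kept a narrow range, 787 to 1002 normalized CPM over the 6 libraries. Fabp4 ranged more widely, at 5762, 11964, 10983, 7925, 16382 and 12431 CPM, again lowest in run 1.

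The share of capillary cells among kept barcodes gives their yield in each sort. It was 26.3%, 40.0%, 8.80%, 49.1%, 16.6% and 10.5%. EYFP positive fractions averaged 25.4% ± 20.8 (SD, n = 3) and EYFP negative fractions 25.02% ± 15.6 (SD, n = 3), a difference of 0.376 percentage points (two-sided exact permutation test, p = 1.0; the smallest this design allows is 0.1). The sign turned when either of 2 libraries was left out: to -7.73 points for the negative fraction of run 3 and to -11.5 points for the positive fraction of run 1. After pancreatitis the share was 9.65% ± 1.21 (SD, n = 2) against 33.0% ± 14.4 (SD, n = 4) in homeostasis. Both run 3 libraries lay below the other 4, which gave p = 0.133 in the two-sided exact permutation test, the smallest it can give. Of endothelial barcodes, 72.6% to 90.5% were capillary and the rest arterial.

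Next, expression was compared between the EYFP positive and negative fractions, with UMIs summed per library over the capillary cells, state as a covariate, and edgeR's quasi-likelihood test with Benjamini-Hochberg adjustment. Of 7623 genes tested 4 were called at an adjusted p under 0.05, or 0.0525%, all lower in the EYFP positive fractions, and 168 had an unadjusted p under 0.05. The called genes were Igkc, Ighm and Jchain, which encode antibody chains and their linker, and Dcn, a proteoglycan of fibroblasts. No gene was called higher. The count moved with single libraries: 14 without EYFP negative run 1, 2 without EYFP negative run 2, 1 without EYFP positive run 1, 35 without EYFP positive run 2, and 12 without EYFP positive run 3.

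Igkc stood at 612, 526, 17.9, 31.1, 50.5 and 0 CPM, high in 2 of the 3 negative libraries and overlapping the positive range in the third (log2 fold change -4.07 ± 0.35 SE, edgeR adjusted p = 2.08e-05). Ighm fell by 3.58 on the log2 scale (SE 0.53, adjusted p = 0.0126). Jchain had 92 UMIs in the negative and 3 in the positive libraries, a ratio of depth-adjusted counts of 0.0334 (95% counting interval 0.00677 to 0.101, adjusted p = 0.0126). Dcn had 3, 205 and 10 UMIs in the negative libraries and none in the positive, at least 70.9-fold lower with 3 counts over the group as the floor (adjusted p = 0.0375). Of its 218 UMIs, 205 came from EYFP negative run 2, and the call was lost with the run number as a replicate block (adjusted p = 0.0773). With DESeq2 the calls of Ighm, Jchain and Dcn were lost (adjusted p = 0.868, 0.217 and 0.9999), as they were without EYFP positive run 1 (0.954 for all 3), while Igkc was called under every alternative run.

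None of these is a gene of endothelium: 3 are on the list of B and plasma cell markers and Dcn is on that of fibroblasts. In barcodes with Cd79a UMIs Igkc made up 13.4%, 7.19%, 1.63%, 17.3%, 0.777% and 0.672% of UMIs, against 0.0626%, 0.0491%, 0.00152%, 0.00322%, 0.00495% and 0% in capillary cells. Arterial cells held 0.0555%, 0.0399%, 0.0019%, 0.00256%, 0% and 0%. The summed level of the 8 B and plasma cell markers in capillary cells was 22.7 to 804 CPM in the negative and 0 to 129 CPM in the positive libraries, and that of the 8 fibroblast markers 21.6 to 184 and 0 to 1.29 CPM. Both sums include the called genes, which were the only members of these lists with enough UMIs to be tested. Cd79a, also on the B cell list, is 0 by the rule. The part of B cell, plasma cell or fibroblast RNA in these results was not tested.

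The 5 genes of lowest p in the other direction, Alcam, Krt8, Sox9, Ces1d and Apoc1, were not called. Sox9, a transcription factor of duct cells, stood at 2.64, 4.68, 5.96, 51.8, 10.1 and 0 CPM (log2 fold change 2.94 ± 0.68, adjusted p = 0.285), high in EYFP positive run 1 alone. Krt8, an epithelial keratin, stood at 0, 18.1, 0, 116, 10.1 and 0 CPM (2.76 ± 0.60, adjusted p = 0.218), with the same library apart. The 12 ductal markers summed to 2102 CPM in that library and to 38.0 to 590 CPM in the other 5; their part was not tested.

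None of the genes in the capillary's own groups was called between the fractions. Over all genes tested the median log2 difference was -0.01, with 287 genes (3.76%) higher and 377 (4.95%) lower in every EYFP positive library than in every negative one. For 14 measured genes of lipid uptake the median was -0.04, with 6 higher and 8 lower: Fabp4 differed by 0.36 ± 0.34 and Gpihbp1 by 0.07 ± 0.28. Igfbp7 differed by -0.09 ± 0.30. Of 10 measured VEGF and semaphorin pathway genes outside the rule 9 were lower (median -0.26), among them the co-receptor Nrp1 at 1923, 1615, 1666, 1785, 1486 and 1421 CPM. Of 19 measured basement membrane and matrix genes 15 were lower (median -0.14). All adjusted p for the genes named in these groups were 0.9996 in edgeR's test.

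The mitochondrially encoded genes were mostly lower in the EYFP positive fractions. None was among the 4 genes called above. The rule's limit on mitochondrial UMIs bears on their level, so their p-values are given as a description only. That limit took out 286, 304 and 23 barcodes of EYFP negative runs 1, 2 and 3. In EYFP positive runs 1, 2 and 3 it took out 37, 6 and 20. Of 13, 9 were lower in the EYFP positive fractions (median log2 difference -0.70, against -0.01 over all genes). Between the fractions 8 did not overlap, all of them lower, where 377 of all 7623 genes (4.95%) were. mt-Co3, a subunit of cytochrome c oxidase, stood at 4931, 5286, 5486, 1786, 1910 and 2399 CPM, each positive library below each negative one (-1.38 ± 0.27, edgeR adjusted p = 0.125). It was called with the run number as a replicate block (-1.38, edgeR adjusted p = 0.00296) and by DESeq2 (-1.35, adjusted p = 3.82e-09). mt-Nd3, of respiratory complex I, stood at 477, 504, 366, 209, 192 and 295 CPM (-0.98 ± 0.26, adjusted p = 0.573). The same order was seen for mt-Co3 in arterial cells, at 4904, 4260, 3271, 1497, 1269 and 2372 plain CPM.

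Pancreatitis was then compared with homeostasis, with the EYFP fraction as covariate and the same test. Of the 7623 genes 7 were called (0.0918%), 5 higher and 2 lower after pancreatitis, and 440 had an unadjusted p under 0.05. The 5 higher genes were Reg1, Spink1, Pla2g1b, Tff2 and Gp2, secreted or surface products of the exocrine pancreas; the 2 lower were Igkc and Xist. The call rested on few libraries: none remained called without EYFP negative run 3, while 54 were called without EYFP positive run 2, 33 without EYFP positive run 3, 16 without EYFP negative run 2 and 15 without EYFP negative run 1.

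Reg1, a secreted lectin of acinar cells, stood at 55.4, 73.7, 1415, 70.0, 131 and 277 CPM, both run 3 libraries above the other 4 (3.39 ± 0.45, edgeR adjusted p = 0.0025). Spink1, the secretory trypsin inhibitor, stood at 26.4, 26.3, 227, 28.6, 60.6 and 102 CPM, again without overlap (2.58 ± 0.36, adjusted p = 0.00345). Pla2g1b, a digestive phospholipase, stood at 18.5, 35.1, 298, 33.6, 111 and 120 CPM (2.63 ± 0.43, adjusted p = 0.0182). Tff2, a mucosal peptide, and Gp2, a zymogen granule protein, were called with overlapping libraries. Gp2 stood at 7.91, 14.0, 229, 11.2, 30.3 and 9.23 CPM, high in EYFP negative run 3 alone, and its log2 difference was -0.57 without that library. A further set left out cells with at least 2 markers of another lineage, acinar not included. It also left out cells that Scrublet marked as doublets, barcodes shared by several cells. With it the calls of Spink1 (1.09, adjusted p = 0.94), Pla2g1b (1.37, 0.724) and Tff2 (1.38, 0.759) were lost. EYFP negative run 3 went from 129 to 122 cells there, with 2 holding such markers and 5 marked as doublets. Without cells holding venous or lymphatic markers all 5 were lost, Reg1 at 1.63 (adjusted p = 0.0696), Spink1 at 1.08 (0.921), Pla2g1b at 1.18 (0.8), Tff2 at 1.02 (0.933) and Gp2 at 0.017 (1.0).

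These genes moved with the acinar markers as a whole. All 18 measured acinar markers of the 20 listed were higher after pancreatitis (median log2 difference 2.46), 1 of them called. Their sum in capillary cells was 2544, 4329, 41711, 3260, 11478 and 5968 plain CPM, highest in EYFP negative run 3. That library also had the largest haemoglobin share over all its barcodes, 62.6% of UMIs. The part of acinar RNA in the 5 calls was not tested.

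Xist, the X-inactivation RNA, had 2635 UMIs in homeostasis and none in run 3, at least 95.0-fold lower (edgeR adjusted p = 0.0012). Igkc stood at 17.9 and 0 CPM in run 3 and at 31.1 to 612 CPM in homeostasis (-5.01 ± 0.50, adjusted p = 0.000174). Sex, run and pancreatitis cannot be told apart between run 3 and run 1, so values are given below for the Y-linked-only cells of EYFP negative run 2 (157 cells) and EYFP negative run 3 (53 cells). Those compare 2 libraries, with intervals that cover counting error only.

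Immediate-early genes, which cells switch on within minutes of a stimulus, including tissue dissociation, were mostly lower in run 3. Of 21 measured, 16 were lower and 5 higher (median log2 difference -0.93, against -0.05 over all genes). None was called, and 10 lay below homeostasis in both run 3 libraries, where 837 of all genes (11.0%) did. In the EYFP comparison 15 of the same 21 were higher and 6 lower (median 0.13).

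Egr1, a zinc finger factor, stood at 908, 190, 107, 556, 576 and 27.7 CPM, so both run 3 libraries lay below the rest and EYFP negative run 2 was nearest (-2.85 ± 0.58, edgeR adjusted p = 0.0946). Junb, a subunit of AP-1, stood at 1206, 499, 292, 865, 1617 and 148 CPM (-2.13 ± 0.45, adjusted p = 0.111), and Ier2 at 712, 308, 206, 597, 586 and 138 CPM (-1.61 ± 0.37, adjusted p = 0.181). Without EYFP positive run 2, Egr1, Junb and Ier2 were all among the 54 genes called. Zfp36, which destabilizes cytokine mRNAs, stood at 449, 187, 122, 316, 384 and 120 CPM (-1.41 ± 0.37, adjusted p = 0.343).

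The group was not uniform. Jun stood at 1638, 1559, 1454, 1861, 3466 and 729 CPM and Fos at 654, 257, 361, 491, 1001 and 36.9 CPM; Fos in EYFP negative run 3 lay above EYFP negative run 2. In the Y-linked-only cells Egr1 was 0.557 times as high in EYFP negative run 3 as in run 2 (0.300 to 0.977) and Junb 0.765 times (0.562 to 1.03). In arterial cells Egr1 stood at 515, 178, 9.51, 446, 203 and 113 plain CPM. With 4 to 155 arterial cells per library, run 3 was again below every homeostasis library.

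**Figure D3:**
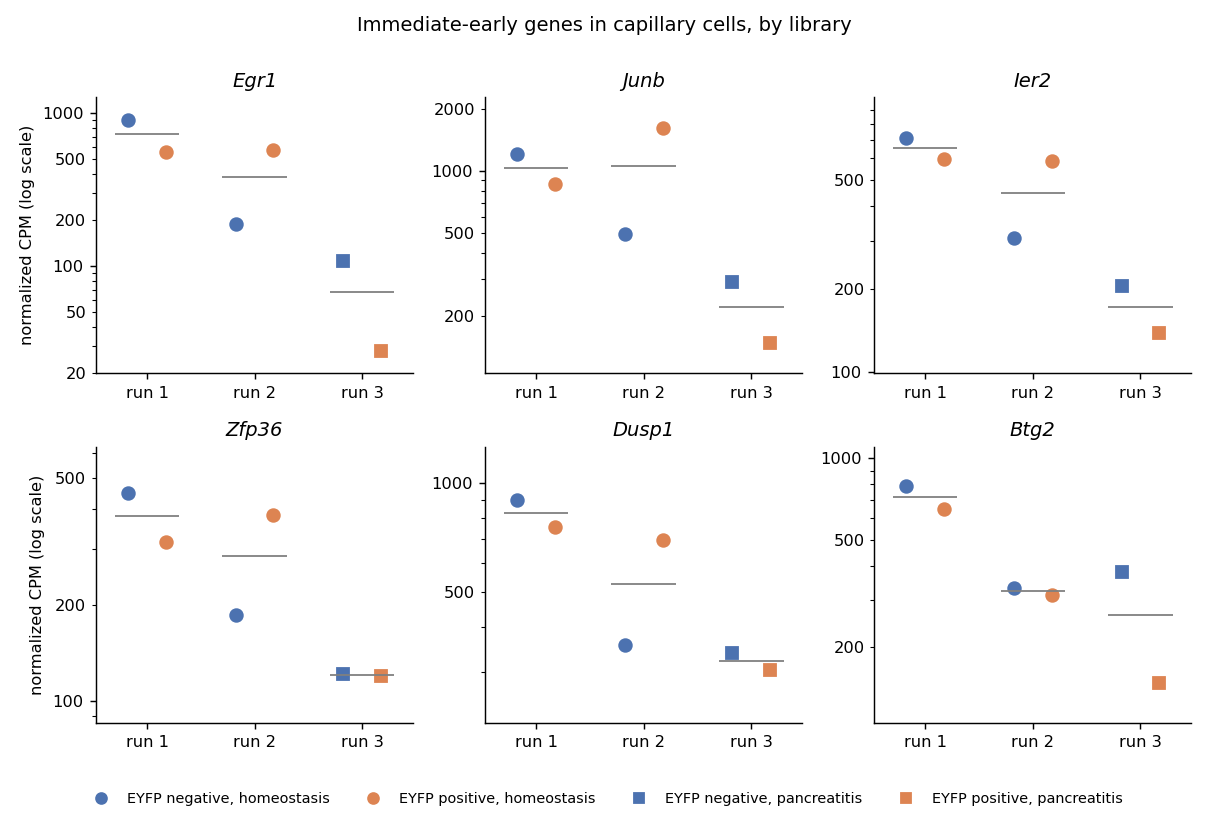
Normalized CPM of 6 immediate-early genes in the capillary cells of each library, on a log axis. Blue points are EYFP negative and orange EYFP positive libraries, circles homeostasis and squares pancreatitis, and bars the mean of a run's 2 libraries. Egr1 lies between 190 and 908 CPM in runs 1 and 2 and at 107 and 27.7 CPM in run 3, while Btg2 overlaps.

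Promoter sequence was available for part of this group in RefSeq (build GRCm38.p6), and 2 promoters with a cyclic AMP response element (CRE) are shown because they carry the site through which CREB-type factors act at stimulus-induced genes. The sequences run 5′ to 3′ over the 250 bases before the gene's start, the CRE TGACGTCA and the E-box CACGTG in capitals; both motifs read the same on either strand. Dusp1, a phosphatase that switches MAP kinases off, lies on the minus strand (chr17:26508473-26508722) and has a CRE 143 and an E-box 126 bases before its start. Btg2, an antiproliferative gene, lies on the minus strand (chr1:134079156-134079405) with a CRE 166 bases before its start.
Dusp1: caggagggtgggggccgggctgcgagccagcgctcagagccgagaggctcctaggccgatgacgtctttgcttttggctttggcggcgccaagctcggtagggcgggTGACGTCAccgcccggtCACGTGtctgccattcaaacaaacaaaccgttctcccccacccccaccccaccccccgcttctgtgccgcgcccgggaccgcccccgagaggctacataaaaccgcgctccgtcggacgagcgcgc
Btg2: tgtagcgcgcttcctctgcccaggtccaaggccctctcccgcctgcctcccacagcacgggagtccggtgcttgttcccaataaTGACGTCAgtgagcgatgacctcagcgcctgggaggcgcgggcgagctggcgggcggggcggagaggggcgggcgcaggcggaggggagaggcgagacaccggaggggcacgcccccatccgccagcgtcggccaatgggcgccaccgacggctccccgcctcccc
Of 32851 promoters of that length, 1.55% hold this CRE and 6.02% this E-box; a match is a description of the letters. Dusp1 stood at 900, 356, 340, 754, 697 and 305 CPM (-1.04 ± 0.35, edgeR adjusted p = 0.627). Btg2 stood at 786, 333, 378, 649, 313 and 148 CPM, with overlapping groups. The windows of Junb, Zfp36, Fos and Jun held neither motif.

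Sparc, Cxcl12, Cldn5 and Gpx1, from different lists, were higher in both run 3 libraries than in all 4 of homeostasis, where 641 of all genes (8.41%) were. None was called. Sparc, a matricellular protein of basement membranes, stood at 1702, 1923, 3477, 1661, 1546 and 3525 CPM (1.04 ± 0.27, edgeR adjusted p = 0.322). Cxcl12, the ligand of Cxcr4, stood at 820, 1019, 1752, 1009, 647 and 1837 CPM (1.03 ± 0.28, adjusted p = 0.37). Cldn5, the endothelial tight junction claudin, stood at 39.6, 24.0, 104, 35.2, 10.1 and 55.4 CPM (1.50 ± 0.40, adjusted p = 0.37), and Gpx1, a glutathione peroxidase, at 171, 181, 375, 196, 141 and 314 CPM (0.97 ± 0.25, adjusted p = 0.322). In each of the 4 both run 3 libraries lay above the homeostasis range.

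In Y-linked-only cells, Sparc was 1.73 times as high in EYFP negative run 3 as in run 2 (1.56 to 1.92), Cxcl12 1.75 times (1.50 to 2.05) and Gpx1 2.64 times (1.91 to 3.65). The collagen IV chains Col4a1 and Col4a2, the scaffold of the capillary basement membrane, lay in the same direction without overlap. Col4a1 stood at 2575, 2099, 3331, 2711, 2031 and 3673 CPM (0.57 ± 0.28, edgeR adjusted p = 0.871). The basement membrane list as a whole had 11 genes higher and 8 lower (median 0.13). Of its 19 measured genes 3 were higher without overlap, where 641 of all 7623 genes (8.41%) were. Fabp5, the second fatty acid carrier, stood at 501, 710, 876, 496, 586 and 1246 CPM (0.87 ± 0.28, adjusted p = 0.622), while the lipid uptake list was divided into 7 higher and 7 lower (median -0.08).

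**Figure D4:**
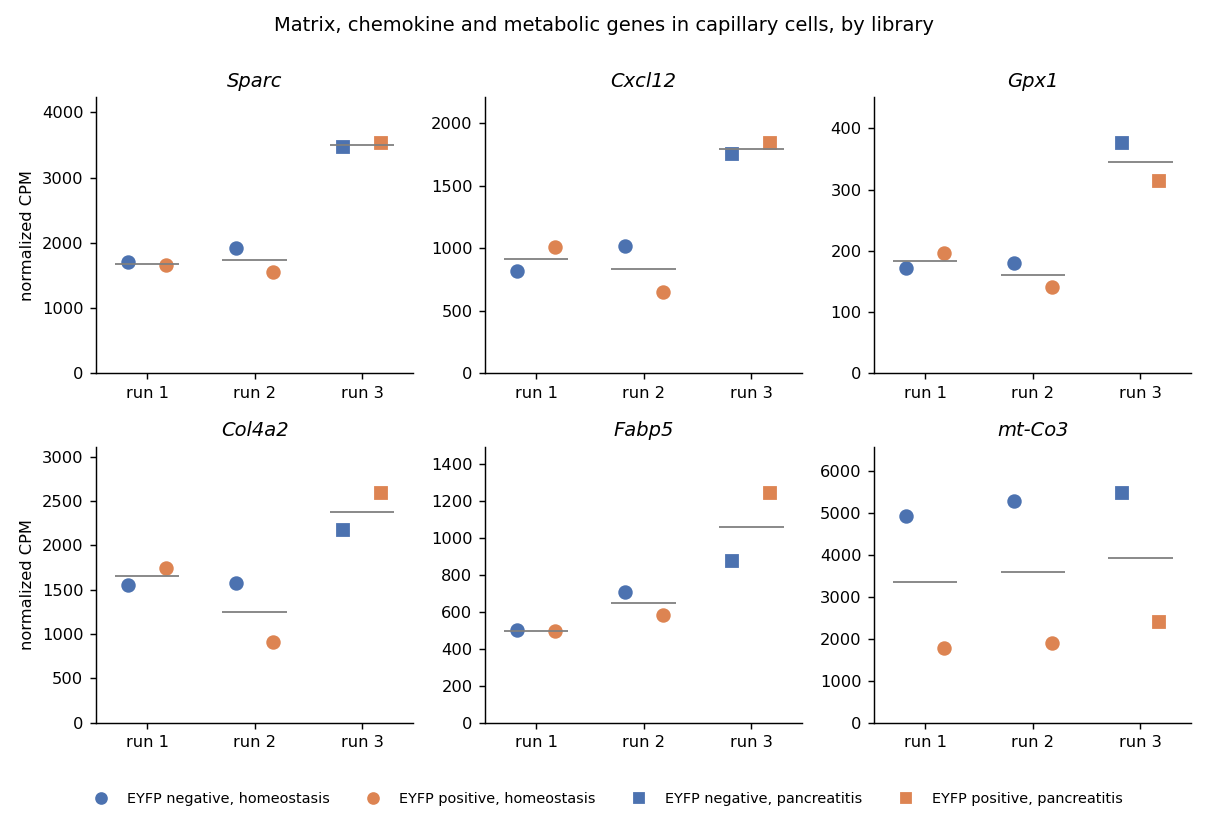
Normalized CPM in the capillary cells of each library, on linear axes from 0, for 5 genes higher in both run 3 libraries and for mt-Co3. Blue points are EYFP negative and orange EYFP positive libraries, circles homeostasis and squares pancreatitis, and bars the mean of a run's 2 libraries. Sparc lies at 1546 to 1923 CPM in homeostasis and at 3477 and 3525 CPM after pancreatitis, whereas mt-Co3 separates the fractions in every run.

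Notch pathway genes leaned the other way. Notch signalling between endothelial cells, with Dll4 as ligand and Hes1 as target, sets arterial fate and restrains sprouting. All 10 measured genes outside the rule were lower after pancreatitis (median -0.56), where 4150 of all 7623 genes were. Of the 10, 5 did not overlap, against 837 of all genes (11.0%), and none was called. Hes1 stood at 472, 318, 244, 512, 323 and 166 CPM (-0.96 ± 0.32, edgeR adjusted p = 0.625). Dll4 stood at 179, 121, 101, 119, 111 and 36.9 CPM (-0.82 ± 0.34, adjusted p = 0.816). The receptor Notch1, at 422, 254, 262, 329, 162 and 268 CPM, overlapped. In Y-linked-only cells Hes1 was 0.809 times as high in EYFP negative run 3 as in run 2 (0.581 to 1.11).

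Of 22 measured endothelial transcription factors 16 were lower and 6 higher (median -0.24), none called. Sox17 stood at 124, 93.6, 41.7, 126, 111 and 55.4 CPM (-1.27 ± 0.35, edgeR adjusted p = 0.37), both run 3 libraries below the rest, and in Y-linked-only cells it was 0.372 times as high (0.112 to 0.972). The flow-induced factors Klf2 and Klf4 overlapped between the states. The 5 measured genes of the angiopoietin and Tie pathway were all lower (median -0.34), from Tie1 at -0.04 ± 0.27 to Angpt2 at -1.07 ± 0.49.

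Antigen presentation genes were divided. Of 39 measured genes of interferon response and MHC class I, 17 were higher and 22 lower (median -0.14). Within them the class I-like gene H2-Q6 stood at 274, 346, 95.4, 179, 202 and 92.3 CPM, below homeostasis in both run 3 libraries (-1.46 ± 0.32, edgeR adjusted p = 0.126). H2-Q7 followed at 348, 497, 158, 275, 323 and 194 CPM (-1.07 ± 0.31, adjusted p = 0.423). H2-Q6 and H2-Q7 are near-identical copies whose reads may be split between them. The classical H2-K1 and H2-D1 overlapped, at -0.39 ± 0.30 and -0.24 ± 0.32. In Y-linked-only cells H2-Q6 was 0.172 times as high in EYFP negative run 3 as in run 2 (0.0867 to 0.309).

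All 5 measured MHC class II genes were lower in run 3 without overlap (median -3.03), where 11.0% of all genes were, and none was called. H2-Ab1 stood at 50.1, 133, 5.96, 35.6, 50.5 and 18.5 CPM (-3.10 ± 0.74, edgeR adjusted p = 0.22). B cells and macrophages also express them, and the B and plasma cell markers given above were lowest in the same 2 libraries; their part was not tested. Of 10 measured leukocyte adhesion and chemokine genes, 2 were higher, Cxcl12 among them, and 8 lower (median -0.31). Icam1, a leukocyte ligand, stood at 44.9, 38.0, 11.9, 42.3, 30.3 and 0 CPM (-2.19 ± 0.62, adjusted p = 0.423).

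The interaction of fraction and state, which asks whether the 2 states differ alike in both fractions, gave no call (0.0% of 7623 genes), with 235 genes at an unadjusted p under 0.05 in edgeR and 3 called by DESeq2. The 5 genes of lowest p were Clps, Try5, 2210010C04Rik, Cpb1 and Prss2, all genes of digestive enzymes or cofactors, at adjusted p = 0.135. Clps, colipase, had the smallest of the 5 interaction values, -3.83 ± 0.71. It stood at 0.023 once cells with at least 2 markers of another lineage and cells marked as doublets were left out.

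The levels of circadian clock genes followed the run. The clock's core activators bind E-boxes, and the output factors Dbp, Tef and Hlf act through D-boxes. Per3 and Tef are shown because each holds such a site within 250 bases of a start. Capitals mark the D-boxes TTATGTAA in Per3 and the E-box CACGTG in Tef; the D-box search also took TTACGTAA and both strands. Per3 lies on the minus strand (chr4:151044666-151044915), with D-boxes 205 and 158 bases before its start. The first Tef entry lies on the plus strand (chr15:81802423-81802672), with an E-box 127 bases before its start.
Per3: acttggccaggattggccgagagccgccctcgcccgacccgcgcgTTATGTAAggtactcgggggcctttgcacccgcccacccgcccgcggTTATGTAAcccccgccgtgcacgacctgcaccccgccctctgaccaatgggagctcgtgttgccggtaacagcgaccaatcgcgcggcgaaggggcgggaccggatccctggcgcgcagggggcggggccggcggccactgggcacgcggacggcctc
Tef: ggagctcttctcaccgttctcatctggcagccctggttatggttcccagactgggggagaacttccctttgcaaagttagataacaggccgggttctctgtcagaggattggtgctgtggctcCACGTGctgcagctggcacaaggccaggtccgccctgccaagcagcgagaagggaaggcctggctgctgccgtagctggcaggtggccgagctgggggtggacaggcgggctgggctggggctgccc
A D-box occurred in 0.931% of the 32851 promoters. None of the 3 motifs was found in the windows of Dbp, Nr1d1 and Nr1d2, which says only that these letters are absent there.

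Dbp stood at 0, 169, 2.98, 5.39, 202 and 0 CPM, high in both libraries of run 2 and near 0 in the other 4. Per3, a period gene, stood at 10.6, 91.3, 8.94, 7.04, 50.5 and 0 CPM and Tef at 26.4, 115, 8.94, 9.11, 50.5 and 9.23 CPM. Nr1d1, the repressor REV-ERB alpha, stood at 34.3, 176, 0, 16.2, 152 and 0 CPM. Nr1d1 had no UMI in run 3 against 368 in homeostasis, at least 13.3-fold lower (edgeR adjusted p = 0.371). In the comparison of states 10 of 12 measured clock genes were lower (median -2.29), none called, and the order by run shows that homeostasis itself held both levels.

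**Figure D5:**
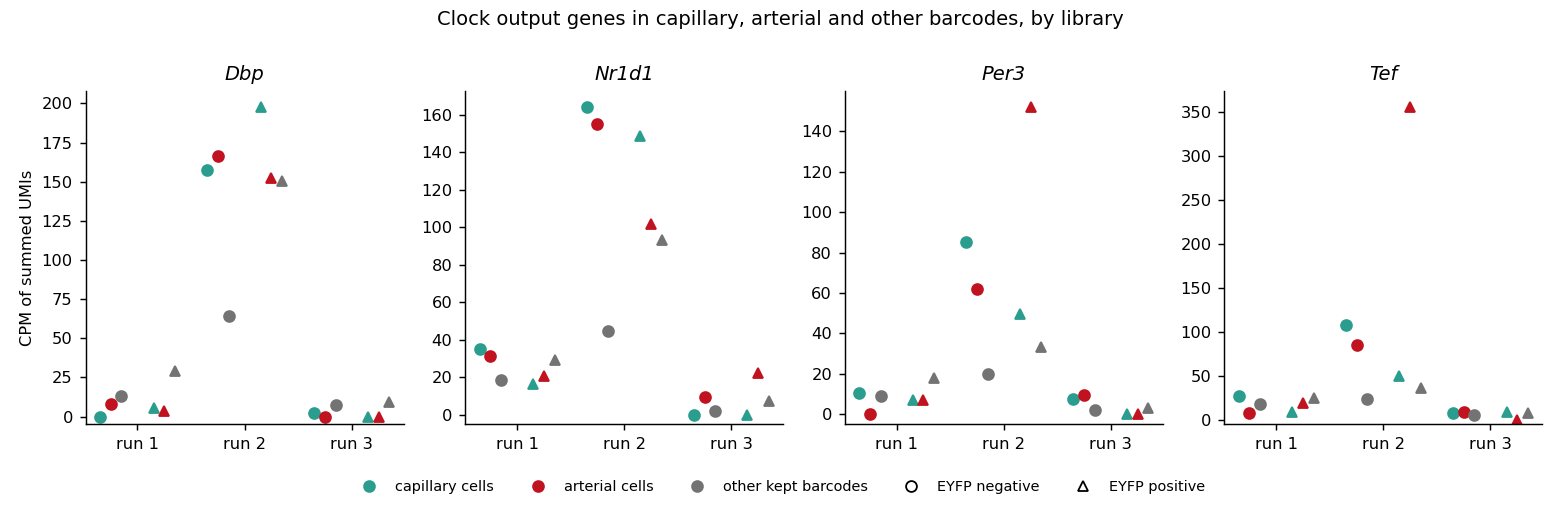
Plain CPM of summed UMIs of 4 clock genes by run, on linear axes, in capillary (green), arterial (red) and the remaining kept (grey) barcodes. Circles are EYFP negative and triangles EYFP positive libraries. Capillary Dbp reaches 158 and 198 CPM in the 2 libraries of run 2 and at most 5.58 CPM in the other 4.

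The same run order appeared outside the capillaries. In arterial cells Dbp stood at 7.92, 166, 0, 3.65, 152 and 0 plain CPM, and in the other kept barcodes at 13.2, 64.0, 7.15, 29.0, 150 and 9.41 plain CPM. The labels give no time of day.

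The make-up of the capillary population was described by the share of cells, thinned to 1000 UMIs, with at least 2 genes of a marker set. A venous set was met by 0% to 3.29% of cells and a lymphatic set by none, where 0 of 569 cells in EYFP negative run 2 allows up to 0.527%. A set of genes of angiogenesis and of tip cells, the leading cells of sprouts, was met by 69.2% to 95.0% and cell cycle genes by 0% to 5.06%. At 2000 UMIs per cell the tip set was met by 92.6% to 100%, so its share depends on depth and is no count of tip cells. Esm1, a proteoglycan of sprouting tips, was seen at 1000 UMIs in 11.5% to 23.5% of cells. An arterial set was met by 0% to 16.5% of cells at 1000 UMIs. It holds the 5 arterial genes that the rule limits, so its share was bounded by the rule and its comparison carries no weight. With 5 sets, no difference between fractions or between states passed the two-sided exact permutation test (all Benjamini-Hochberg adjusted p = 1.0; the smallest unadjusted p possible were 0.1 and 0.133).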

How the data were processed

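The values analysed are UMI counts per gene and barcode, deposited by the authors as 6 sparse matrices of 31053 features each. Per the file headers they were written by software version 3.1.0. The submitters' processing notes name Cell Ranger 2.1.0 and GRCh38, while the features are mouse Ensembl genes; no source used here names the mouse build. The members, gene lists and tests were chosen with earlier results of these data known.

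Of 8582 barcodes, 2977 had under 200 genes and another 676 had over 20% mitochondrial UMIs. No doublets were removed from the main set. Scrublet in scanpy 1.11.5 marked 41 of the 4929 kept barcodes, 8 of them capillary cells. The alternative without cells holding markers of other lineages left these 8 out too. UMIs were summed per library over capillary cells (101062 to 2327955) and tested with edgeR 4.0.16 in R 4.3.3 (filterByExpr, TMM factors, glmQLFit and glmQLFTest, Benjamini-Hochberg over 7623 genes, calls at 0.05). All 6 libraries entered each fit, and the standard error is the size of the log2 fold change divided by the root of the F statistic. The 14 genes of the rule stayed in the fits but are given no p. Mitochondrially encoded genes, whose summed share the rule limits, are given p as a description only. CPM printed for lists of markers and for arterial or other barcodes are not TMM-adjusted. On simulated counts with known changes over 7623 genes, the fit of the fractions recovered 22.4% of 2-fold, 86.6% of 4-fold and 98.5% of 8-fold changes with 12 false calls, and that of the states 8.96%, 70.1% and 89.4% with 8.

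Named genes were, per comparison and direction, up to 15 with the largest fold change among called genes of mean log2 CPM of at least 5 whose groups did not overlap. Where fewer than 5 passed, the 5 of lowest p were named. For the interaction it was the 5 of lowest p, and for each of 39 lists (523 genes) up to 6 members by lowest p and 6 by highest level. Called genes outside this were named after their values were seen, as were the clock genes by run. For arterial and other cells it was up to 15 genes per direction by the ratio of means, among genes of at least 50 CPM with 1 direction in every library.

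The run number pairs the fractions, per the labels: deviations from the group means correlated at 0.239, 0.136 and 0.107 within runs 1, 2 and 3. Between runs the correlations were -0.202 to 0.0301. The main fit of the fractions and the tests of shares did not use this pairing. With the run as a replicate block 483 genes had an unadjusted p under 0.05 in edgeR, against 168 in the main fit. Shares were compared by two-sided exact permutation tests in Python 3.11.15. Intervals at 95% are exact and cover counting error only, as does the limit of 3 counts taken for a count of 0. Alternatives were DESeq2 1.42.0, other filters and cell rules, thinned libraries, a replicate block, single fractions and leaving out each library. Leaving out shared barcodes was added after seeing the data.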

Additional observations from a re-analysis of the deposited data

Results flagged for a closer look

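In the 4 homeostasis libraries, 1 library stood far from the other 3 in 9 of 60 checks. The checks covered named genes and the acinar, haemoglobin, Igkc and ductal shares of UMIs, and all 9 flags were genes. The test flags about 1 group in 20 by chance where values are not picked beforehand. Many of these genes were named by their values in the same libraries, so that rate does not apply to them. EYFP negative run 2 stood apart in 3 genes of other lineages or of antigen presentation. Alas2, the haem synthesis enzyme of red cell precursors, was at 39.2 CPM there and at 0 to 1.24 CPM in the other 3. Dcn was at 119.9 CPM against 0 to 7.91, and H2-Ab1 at 133 CPM against 35.6 to 50.5.

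EYFP positive run 1 stood apart in 4 genes. Alcam, an adhesion molecule, was at 73.7 CPM against 5.28 to 10.5, and Apoc1, an apolipoprotein, at 62.5 CPM against 0 to 7.61. Krt8 was at 116 CPM against 0 to 18.1, and Sox9 at 51.8 CPM against 2.64 to 10.1. The 12 ductal markers summed to 2102 CPM in that library.

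EYFP positive run 2, with 31 capillary cells, stood apart in 2 acinar genes. Cpb1, a pancreatic carboxypeptidase, was at 1081 CPM against 142 to 266, and Spink1 at 60.6 CPM against 26.3 to 28.6. Acinar genes took 1.15% of the capillary UMIs in that library and 0.254% to 0.433% in the other 3 of homeostasis. The part of ductal, acinar or red cell RNA in these values was not tested.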

How the results depend on the processing

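The number of genes called between the fractions was 4. With the replicate block it was also 4, but Dcn was lost (adjusted p = 0.0773) and mt-Co3 gained (0.00296). It was 2 with DESeq2, 57 with no filter on low counts, 1 with every library thinned to the smallest and 8 without shared barcodes, and 1 to 35 when each library was left out. Between the states it was 7: 11 with DESeq2, 82 with no filter, 19 thinned, 4 without cells holding markers of other lineages, 2 without cells holding venous or lymphatic markers, 16 without shared barcodes, 63 in the EYFP negative libraries alone, and 0 to 54 when each library was left out. For the interaction it was 0: 3 with DESeq2, 33 with no filter, 31 thinned, and 5 to 37 when single libraries were left out. Where this left an arm with 1 library, that library was assumed to vary like the rest. For 44 single genes under 712 alternatives, 569 kept their direction and side of the threshold, 30 lost it, 111 gained it and 2 reversed: Gp2 between the states (-0.57 without EYFP negative run 3, and up to 4.19 without another library) and Clps in the interaction (0.023 without cells holding markers of other lineages). The set without cells holding markers of other lineages also left out cells marked as doublets. Among these genes the replicate block changed no call beside those of Dcn and mt-Co3. The share of capillary cells differed between fractions by -11.5 to 7.87 points, and between states by -28.8 to -18.0 points, when each library was left out. Marker set differences that reversed with depth, in percentage points, were arterial genes between fractions (1.01 unthinned), tip genes between states (-2.51 unthinned) and cell cycle genes between fractions (1.46 at 2000 UMIs, 13.8 unthinned) and states (6.52 unthinned). A fit of the states on Y-linked-only cells was not run, since 2 libraries held under 10 of them. EYFP positive runs 2 and 3, with 31 and 25 cells, limit the precision of every comparison.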

Other observations

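Capillary cells also differed among themselves within a library. In the 2 largest libraries, EYFP negative run 2 (569 cells of at least 1000 UMIs) and EYFP positive run 1 (395 cells), each cell was thinned to 1000 UMIs and the variance of each gene's count was divided by its mean, a ratio near 1 where cells differ by counting alone. The median over genes was 1.06 and 1.05. Fabp4 reached 7.21 and 5.53 around means of 10.2 and 8.33 UMIs per cell, and Igfbp3, a binding protein of insulin-like growth factors, 3.73 and 4.96. Igfbp3 was seen in 59.9% and 65.1% of the cells. Esm1, a proteoglycan of sprouting tips, gave 2.40 and 2.44 while being seen in 22.5% and 23.5% of cells. Cxcl12 gave 2.87 and 2.24, and the water channel Aqp1 2.95 and 1.85. Egr1 gave 2.63 and 2.11 and was seen in 10.7% and 27.6% of cells.

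Hbb-bs, a haemoglobin chain, gave 314 and 203, and Spp1, on the list of ductal markers, 26.1 and 17.9. These ratios come from 1 library each and carry no test, and larger means leave more room for a ratio above 1.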
